A study of Mus musculus with 12 samples.

Results

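The genes described here are 8 genes of fructose 1,6-bisphosphate cleavage, glucose synthesis and fructose breakdown, Aldoa, Aldoc, Fbp1, Fbp2, Pck1, Pck2, G6pc and Khk, out of 34650 gene names on a one-colour Agilent mouse array. They were chosen by gene name as printed in the scanner files, and not by their values. All 8 had a probe, and Khk alone had a second one, which was dimmer on average and is given apart. The organoids were kidney organoids after 7 days of culture (day 7, n = 3) and kidney organoids just after reconstruction (day 0, n = 3). They joined cells made from mouse embryonic stem cells of mixed B6 and 129SV background with wild-type ICR cells, which by the known design of the study were stromal progenitors of E11.5 kidney. An organoid array therefore reads RNA of embryo-derived as well as of stem-cell-derived cells. The kidney groups were wild-type ICR, with 1 array each: E11.5 kidney cultured for 7 days, and fresh whole kidney, taken without the ureter, at 5 stages, which were E11.5 and E13.5, then E15.5 and E17.5, and last P0, the day of birth. Culture was on a transwell membrane with Matrigel, in DMEM/F12 medium with serum.

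Levels are log2 signals minus the 75th percentile of the same array, so that 0 is that percentile and a difference of 1 is 2-fold. Levels of different genes come from different probes and were not set against each other. Kidney identity was checked with 10 progenitor and nephron markers, Six2, Wt1 and Pax2 among them. All 10 were well above background on every array, and their summed level relative to the 75th percentile was 102 to 114 at day 7, 105 to 124 at day 0, 124 in cultured kidney and 58.0 to 162 in fresh kidney. The signal at the 75th percentile lay between 126 and 138 for the day 0 arrays and between 201 and 287 for the remaining 9. The fresh and cultured kidney arrays and day 0 replicates 1 and 2 were on 1 slide, and day 0 replicate 3 and the day 7 arrays on another. The labels do not say that replicates were separate cultures, so p-values measure only the spread between these arrays. In whole tissue, fewer cells of a type and less RNA per cell cannot be told apart.

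Aldolases split fructose 1,6-bisphosphate into triose phosphates in glycolysis and join them again when glucose is made. Fructose 1,6-bisphosphatase, phosphoenolpyruvate carboxykinase and glucose 6-phosphatase carry the steps that bypass the one-way reactions of glycolysis. In the adult kidney glucose is made, and fructose is broken down, in the proximal tubule, where ketohexokinase forms fructose 1-phosphate. Transcription of glycolytic genes such as Aldoa is known to respond to hypoxia-inducible factors, that of Pck1 and G6pc to hepatocyte nuclear factors, cAMP and glucocorticoids, and that of Pck2 to the stress factor Atf4.

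The sequences before the start sites of 5 of the genes are shown because the members moved in separate groups, described further on. Each holds the 250 bases upstream of a RefSeq start (GRCm38.p6, 5′ to 3′ on the strand of the gene). Capitals mark matches, on either strand, to ACGTG (the core of a hypoxia response element), TGACG (a cAMP response core), CAAAGT (an HNF4 core), TGATGNAA (an Atf4 composite core), TATAAA and TGTTCT (a glucocorticoid response core). The window of Pck1, the cytosolic carboxykinase, is chr2:173152823-173153072 on the plus strand, that of G6pc, the catalytic unit of glucose 6-phosphatase, chr11:101367466-101367715 on the plus strand, and that of Fbp1, the bisphosphatase of liver and kidney, chr13:62888283-62888532 on the minus strand. For Aldoa, the aldolase of most tissues, the second of its listed starts is shown (chr7:126799255-126799504, minus strand, within the gene), and for Pck2, the mitochondrial carboxykinase, chr14:55540016-55540265 on the plus strand.
Pck1: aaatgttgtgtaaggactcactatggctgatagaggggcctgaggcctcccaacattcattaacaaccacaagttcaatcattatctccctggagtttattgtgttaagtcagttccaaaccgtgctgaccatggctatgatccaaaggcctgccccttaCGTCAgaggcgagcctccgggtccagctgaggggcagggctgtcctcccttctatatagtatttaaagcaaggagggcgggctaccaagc
G6pc: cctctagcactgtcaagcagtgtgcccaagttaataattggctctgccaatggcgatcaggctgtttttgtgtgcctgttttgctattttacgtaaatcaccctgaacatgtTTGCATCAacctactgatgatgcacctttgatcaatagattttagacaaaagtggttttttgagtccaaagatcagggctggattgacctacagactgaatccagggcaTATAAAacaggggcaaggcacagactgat
Fbp1: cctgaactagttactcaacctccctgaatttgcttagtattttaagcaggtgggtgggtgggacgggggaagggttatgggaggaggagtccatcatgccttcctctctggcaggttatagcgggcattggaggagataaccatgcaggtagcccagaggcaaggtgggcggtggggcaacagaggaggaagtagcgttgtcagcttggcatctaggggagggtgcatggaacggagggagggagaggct
Aldoa: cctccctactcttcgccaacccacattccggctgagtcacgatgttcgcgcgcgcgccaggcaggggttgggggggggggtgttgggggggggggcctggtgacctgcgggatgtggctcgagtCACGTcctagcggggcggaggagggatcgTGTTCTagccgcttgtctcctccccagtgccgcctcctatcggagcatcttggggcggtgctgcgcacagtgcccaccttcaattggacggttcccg
Pck2: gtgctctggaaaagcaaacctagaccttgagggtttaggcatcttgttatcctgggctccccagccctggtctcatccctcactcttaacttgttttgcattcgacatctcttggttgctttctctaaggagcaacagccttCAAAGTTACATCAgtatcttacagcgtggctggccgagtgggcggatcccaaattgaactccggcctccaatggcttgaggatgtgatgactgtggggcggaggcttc
In the Pck1 window the cAMP core starts 90 bases before the start. In the G6pc window an Atf4 core lies at 138 bases and TATAAA at 29 bases. The Fbp1 window held none of these letters, and neither did the windows of Aldoc. The Aldoa window holds a hypoxia core at 126 bases and TGTTCT at 97 bases, and these letters also lie in the overlapping window of its last listed start, while the window of its first listed start held none. In Pck2 the HNF4 core at 108 bases and the Atf4 core at 103 bases overlap by 1 base. Of the windows not printed, that of Fbp2 holds a hypoxia core at 42 bases on both strands, a cAMP core at 97 bases and an HNF4 core at 14 bases, and that of Khk a hypoxia core at 71 bases and a cAMP core at 74 bases that overlaps the hypoxia core. Of 32851 promoter windows of this length, 16.6% hold the hypoxia core, 17.8% the cAMP core, 12.6% the HNF4 core, 3.45% the Atf4 core, 12.4% TATAAA and 16.1% TGTTCT. A match is a description of letters and not of a bound site.

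During kidney development 5 of the 8 genes rose with stage and none fell. Fbp1, Pck1, Fbp2, G6pc and Khk had a slope over the 5 stages past the threshold of limma (adjusted p under 0.05, two-sided), against 18.3% of the 25976 genes tested, with 8.74% higher and 9.57% lower (2271 and 2485 genes, or 1714 and 863 when arrays were scaled to their median). The median slope was 1.43 log2 per stage step over the 8 genes and -0.060 over all genes tested. Aldoa, Aldoc and Pck2 did not pass. Each stage had 1 array, and single steps were not tested.

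Fbp1 had levels of -3.98, -2.91, 3.16, 6.22 and 7.63 over the 5 stages, E11.5 first and P0 last. The largest single step lay between E13.5 and E15.5, where E15.5 was 67.2-fold above E13.5, and P0 was 3120-fold above E11.5. Its slope was 3.23 ± 0.36 log2 per step (SE, adjusted p = 0.0133).

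Pck1, which turns oxaloacetate into phosphoenolpyruvate in the cytosol, had -7.03, -4.80, 0.21, 2.39 and 4.87 over the same stages. The E11.5 signal was not well above background, so P0 was at least 1163-fold higher than E11.5. The slope was 3.1 ± 0.21 log2 per step (adjusted p = 0.00994).

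Fbp2, the bisphosphatase known from muscle, had -7.26, -4.92, -0.69, 0.60 and 0.92, with the signals of E11.5 and E13.5 not well above background. P0 was at least 74.9-fold above E11.5, and the slope was 2.19 ± 0.32 (adjusted p = 0.0202). Fbp2 and Fbp1 are neighbours on mouse chromosome 13, 6352 bases apart in GRCm38.p6. The Fbp2 probe is shown because Fbp1 is a related gene next to it. Its mapped ends in mm9 (chr13:62950852-62955367, minus strand) lie 4516 bases apart, so that it joins separate exons, and its match to the Fbp1 transcript was not tested.
Fbp2 probe: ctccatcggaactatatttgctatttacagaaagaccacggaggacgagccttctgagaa
Of 10 skeletal muscle markers tested, 1 rose with stage (Acta1, 1.28 ± 0.20 log2 per step, adjusted p = 0.0215), 2 fell and 7 did not pass. Ckm, the creatine kinase of muscle, was not well above background on any array.

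G6pc, which releases free glucose from glucose 6-phosphate, had -4.88, -5.94, -3.11, -0.48 and 3.01 over the stages, the E13.5 signal being not well above background. Its step between E17.5 and P0 was 11.3-fold, whereas the same step was 5.60-fold for Pck1, 2.66-fold for Fbp1 and 1.25-fold for Fbp2. The slope of G6pc was 2.12 ± 0.38 (adjusted p = 0.0290). G6pc, Pck1 and Fbp2 passed with normexp background correction too, with slopes of 1.22, 1.87 and 0.91.

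Khk, ketohexokinase, had 1.57, 2.01, 2.22, 3.31 and 4.59, with P0 8.09-fold above E11.5. The slope was 0.73 ± 0.11 (adjusted p = 0.0215). The second Khk probe, which is annotated to a predicted transcript variant, had -2.23, -2.46, -2.27, -1.81 and -1.94 and a slope of 0.12 (adjusted p = 0.241). The probes of Khk thus differed over development, and the files do not say which isoforms each one reads. The second probe maps to chr5:31229105-31229164 (mm9, plus strand).
Khk second probe: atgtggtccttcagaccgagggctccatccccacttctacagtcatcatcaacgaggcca

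Aldoa and Pck2 hardly moved with stage. Aldoa had 7.44, 7.29, 7.24, 7.51 and 7.43 and a slope of 0.020 ± 0.053 (adjusted p = 0.813). Pck2, read by 10 spots per array, had -2.45, -2.43, -2.39, -2.38 and -2.56 and a slope of -0.018 ± 0.046 (adjusted p = 0.807). Aldoc, the aldolase known from brain, had 1.48, 1.03, 1.51, 2.51 and 2.84, and its slope of 0.42 ± 0.12 did not pass (adjusted p = 0.0681).

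**Figure D1:**
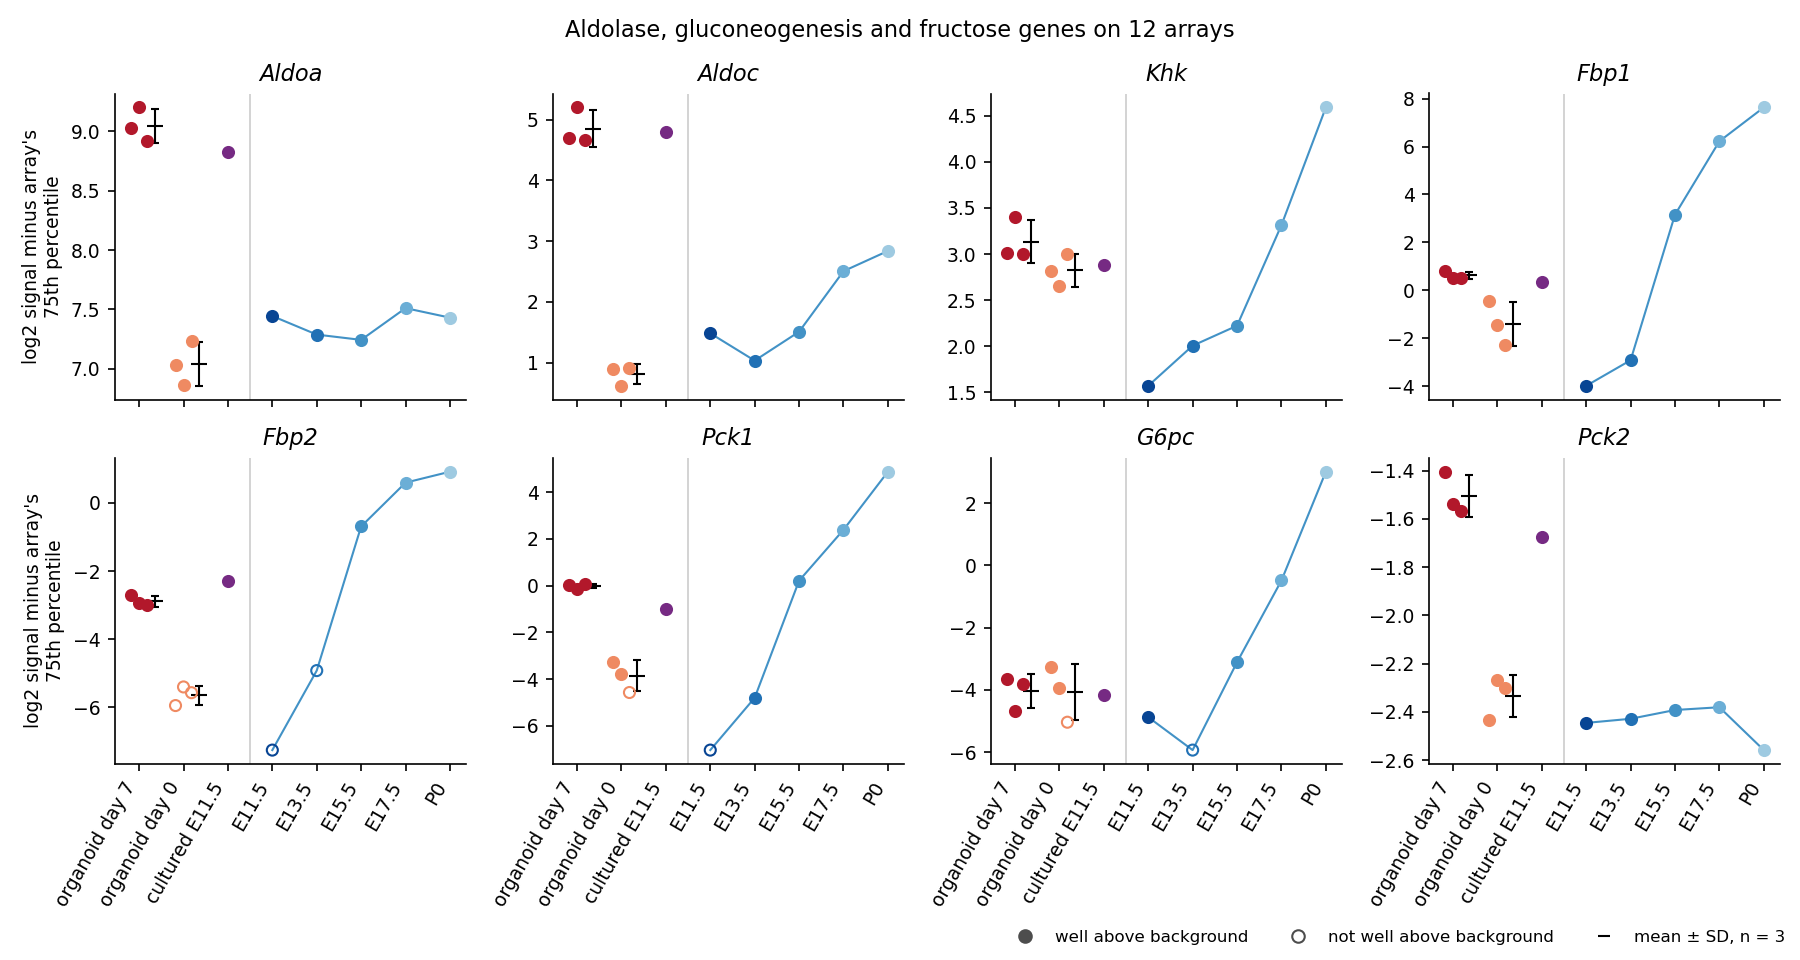
Log2 signal minus the array's 75th percentile for the 8 genes, 1 point per array, in organoids at day 7 and day 0, in cultured E11.5 kidney and in fresh kidney from E11.5 to P0 (joined by a line). Open points were not well above background, and bars are mean ± SD of 3 arrays. Fbp1 runs between -3.98 at E11.5 and 7.63 at P0, while Aldoa stays within 7.24 to 7.51 in fresh kidney and reaches 8.92 to 9.20 at day 7.

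The stage calls rest on few arrays. Without the E17.5 array, or without the P0 array, none of the 8 genes, and no gene of the whole table, passed after adjustment in limma, although 6 and 5 of the 8 rose at an unadjusted p under 0.05. Without the E13.5 array 2 passed.

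The proximal tubule markers moved with these genes. Of 15 such markers 14 rose with stage and 1 did not pass, and their summed level was 2.35, 10.1, 85.7, 297 and 895 in the order of the stages. The part of these cells in the rise of the gluconeogenic genes was not tested. Of 8 liver and gut markers 6 were tested, of which Afp and Vil1 rose and 4 did not pass. Alb, which encodes albumin of hepatocytes, was not well above background on any array.

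Other genes of glucose synthesis and its shuttles rose in part. Of 13 tested, 6 rose with stage, none fell, and the list median was 0.22 per step. Gpd1, the cytosolic glycerol 3-phosphate dehydrogenase, had a slope of 1.96 ± 0.26 (adjusted p = 0.0165), and Slc37a4, the glucose 6-phosphate transporter that works with G6pc, 0.95 ± 0.058 (adjusted p = 0.00946). Pcx, pyruvate carboxylase, had 0.94 ± 0.20 (adjusted p = 0.0389), and Pdk4, a kinase that inhibits pyruvate dehydrogenase, 1.11 ± 0.15 (adjusted p = 0.0177).

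Of 9 other genes of fructose and polyol handling, 6 rose and none fell, with a list median of 0.81 per step. Slc2a2, the sugar transporter of the basal membrane, had a slope of 2.23 ± 0.30 (adjusted p = 0.0171). Glyctk, glycerate kinase, had 1.12 ± 0.11 (adjusted p = 0.0121), Sord, sorbitol dehydrogenase, 0.97 ± 0.096 (adjusted p = 0.0120), and Slc2a5, the fructose transporter, 0.87 ± 0.20 (adjusted p = 0.0459). Of 14 regulators of gluconeogenic genes 5 rose and none fell, among them Ppargc1a, a coactivator of gluconeogenic transcription (0.77 ± 0.085, adjusted p = 0.0133). Glycolytic genes were mixed, with 4 of 22 higher, 5 lower and a median of -0.11.

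After 7 days of culture organoids had 6 of the 8 genes higher than at day 0 and none lower. Aldoa, Aldoc, Fbp1, Fbp2, Pck1 and Pck2 passed in limma (adjusted p under 0.05) and did not overlap between the groups, while G6pc and Khk did neither. Fbp2, Pck1 and G6pc entered the test through the day 7 arrays, since not every day 0 array, and for Fbp2 none, was well above background. Most genes differed between these groups: 66.6% of the 21960 genes tested were called, 24.6% higher and 42.0% lower, and 73.2% did not overlap. The median difference was 2.01 log2 over the 8 genes and -0.20 over all genes tested.

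Aldoa had 9.03, 9.20 and 8.92 in the day 7 replicates, against 7.03, 6.86 and 7.23 at day 0. All 3 day 7 arrays lay above all 3 day 0 arrays, by 2.01 ± 0.13 log2 or 4.02-fold (SE, adjusted p = 3.60e-05).

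Aldoc had 4.69, 5.20 and 4.66 at day 7, against 0.91, 0.62 and 0.91 at day 0. The groups were far apart, with a difference of 4.04 ± 0.17 or 16.4-fold (adjusted p = 8.90e-06). Of 6 markers of astrocytes and glia, given because Aldoc is known from brain, 3 were higher, 1 lower and 2 did not pass, with a summed level of 7.90 to 9.86 at day 7 and 4.85 to 6.61 at day 0. Of 8 neuron markers tested none was higher and 6 were lower, and the summed level of all 9 was 13.0 to 17.6 at day 7 and 33.1 to 34.5 at day 0. Their part in the Aldoc level was not tested.

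Pck1 had 0.019, -0.13 and 0.053 at day 7, against -3.25, -3.76 and -4.57 at day 0. The day 7 arrays lay close together and the day 0 arrays spread over 1.32 log2, the lowest of them not well above background. The difference was 3.84 ± 0.31 or 14.3-fold (adjusted p = 9.81e-05), and 1.61 with normexp background correction (adjusted p = 3.60e-07).

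Fbp1 had 0.81, 0.53 and 0.54 at day 7, against -0.44, -1.44 and -2.27 at day 0. The difference was 2.01 ± 0.43 or 4.04-fold (adjusted p = 0.00577), and again the spread lay in the day 0 arrays. With normexp it was 1.30. Fbp2 had -2.71, -2.95 and -3.01 at day 7, against -5.95, -5.41 and -5.57 at day 0, where none of the 3 signals was well above background. Set against the lowest signals well above background on the day 0 arrays, Fbp2 was at least 2.87-fold higher at day 7. Its p in limma (adjusted p = 2.68e-05) belongs to the difference of 2.75 log2, which takes the day 0 signals as they stand, and not to this bound. With normexp background correction the difference of Fbp2 was 0.079 log2, below that bound, and no longer passed (adjusted p = 0.220).

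Pck2 had -1.40, -1.54 and -1.57 at day 7, against -2.43, -2.27 and -2.30 at day 0. The difference was 0.83 ± 0.090 or 1.78-fold (adjusted p = 0.000327), with no overlap. With normexp background correction it was 0.18 (adjusted p = 0.0155).

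G6pc had -3.65, -4.67 and -3.82 at day 7, against -3.25, -3.93 and -5.04 at day 0. The groups overlapped, and the difference of 0.029 ± 0.48 did not pass (adjusted p = 0.961). With normexp background correction G6pc was called lower at day 7, by -0.38 (adjusted p = 0.00242). In that setting 11614 of the 21960 genes tested were lower and 5062 higher, so a lower call was common. Khk had 3.008, 3.40 and 2.997 at day 7, against 2.82, 2.65 and 3.004 at day 0, which overlapped too. The difference was 0.31 ± 0.15 (adjusted p = 0.106), and it passed with quantile normalization (0.44, adjusted p = 0.0281) and with normexp (0.44, adjusted p = 0.00556).

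On the slide that held all day 7 arrays and day 0 replicate 3, the same 6 genes passed. There the differences were 1.82 for Aldoa, 3.94 for Aldoc, 2.90 for Fbp1, 2.68 for Fbp2, 4.55 for Pck1, 0.80 for Pck2, 0.99 for G6pc (adjusted p = 0.127) and 0.13 for Khk (adjusted p = 0.607). With slide as a block the differences rest on those same arrays, so their equal size was fixed by the design and is no separate check. That fit called the same 6 genes.

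Among the day 0 arrays Fbp1, Pck1 and G6pc were highest in replicate 1 and lowest in replicate 3, while Khk was highest in replicate 3 and Fbp2 was not well above background. The summed level of the 15 proximal tubule markers was 6.15, 4.36 and 2.30 in day 0 replicates 1, 2 and 3, against 2.35 in fresh E11.5 kidney. Kap, an androgen-regulated protein of the proximal tubule, had 0.11, -0.48 and -2.07 in these replicates, against -6.08 in E11.5 kidney, where it was not well above background, and Slc34a1, the phosphate transporter, had -1.86, -2.25 and -3.88, against -7.36. Of all 15 markers 5 were higher at day 0 than in E11.5 kidney (limma, adjusted p under 0.05), 1 was lower and 9 did not pass. Day 0 replicates 1 and 2 shared a slide with the P0 kidney. The part of these markers and of the slide in the day 0 levels was not tested.

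**Figure D2:**
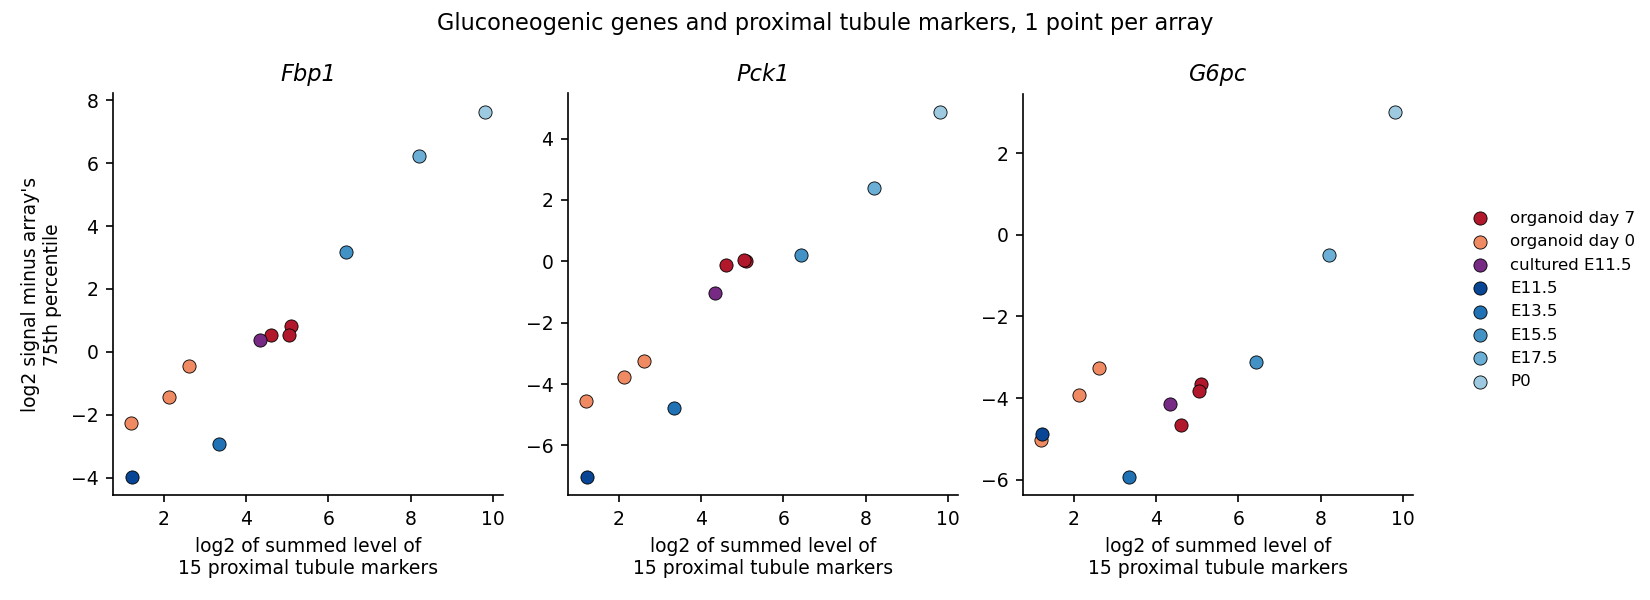
Levels of Fbp1, Pck1 and G6pc (log2 signal minus the array's 75th percentile) against the log2 of the summed level of 15 proximal tubule markers, 1 point per array, coloured by group. Day 7 organoids and cultured kidney lie between E13.5 and E15.5 kidney on the marker axis, with sums of 24.2 to 34.1 and 20.2 against 10.1 and 85.7, and in each panel the 3 day 0 arrays have the same order on both axes.

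Proximal tubule markers rose in culture as well. Of 13 tested, 10 were higher at day 7 and none lower, and the summed level of all 15 was 24.2 to 34.1 at day 7, against 2.30 to 6.15 at day 0. Between 10 and 13 of the 15 were well above background on a day 0 array. Some of the 13 tested thus entered through the day 7 arrays alone, where a call of higher was favoured by the filter. The part of these markers in the rises of Fbp1 and Pck1 was not tested. Of 8 liver and gut markers 4 entered the test through the day 7 arrays, where they were well above background (Afp, Vil1, Ttr and Serpina1a), and passed as higher. The summed level of all 8 was 6.04 to 8.36 at day 7 and 0.22 to 0.39 at day 0. Skeletal muscle markers, given because Fbp2 is known from muscle, had a summed level of 10.9 to 13.9 at day 7 and between 15 and 17.0 at day 0, with 2 of 10 tested higher and 5 lower.

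Other glycolytic genes rose with the aldolases. Of 22 tested, 16 were higher at day 7, 3 lower and 3 did not pass, with a list median of 1.54. Pfkp, the platelet-type phosphofructokinase, rose 17.8-fold (4.15 ± 0.12, adjusted p = 3.44e-06), and Slc16a3, a lactate exporter, 13.7-fold (3.78 ± 0.14, adjusted p = 5.96e-06). The glucose transporters Slc2a3 (3.39 ± 0.28, adjusted p = 0.000105) and Slc2a1 (2.77 ± 0.13, adjusted p = 1.16e-05) rose too.

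All 12 hypoxia targets outside glycolysis were higher at day 7, with a median of 3.20, and their summed level was 178 to 248 at day 7 and 21.6 to 27.0 at day 0. Adm, adrenomedullin, rose 39.96-fold (5.32 ± 0.17, adjusted p = 4.20e-06) and Egln3, an oxygen-sensing prolyl hydroxylase, 34.5-fold (5.11 ± 0.24, adjusted p = 1.13e-05). The part of oxygen supply in these levels was not tested.

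Of 15 Atf4 and amino acid stress genes 13 were higher at day 7 and none lower, with a median of 1.32. Trib3, a pseudokinase of the stress response, rose 20.2-fold (4.33 ± 0.15, adjusted p = 4.89e-06), and Chac1, which breaks down glutathione, 20.1-fold (4.33 ± 0.19, adjusted p = 1.05e-05). Pck2 was the member of the 8 genes that is known as an Atf4 target, and the part of Atf4 in its level was not tested.

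Other gluconeogenic genes did not move as one. Of 13 tested, 5 were higher, 3 lower and 5 did not pass, with a median of -0.020. Gpd1 rose 9.78-fold (3.29 ± 0.14, adjusted p = 8.78e-06) and Slc37a4 2.14-fold (1.1 ± 0.078, adjusted p = 5.64e-05). Pcx fell by 1.13 log2 (SE 0.084, adjusted p = 6.74e-05), and G6pc2, a glucose 6-phosphatase known from pancreatic islets, fell by 3.03 log2 (SE 0.13, adjusted p = 8.90e-06).

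In fructose handling 4 of 9 other genes were higher, 1 was lower and 4 did not pass. Slc2a2 was at least 7.09-fold higher at day 7, its day 0 signals being not well above background. Its p in limma (adjusted p = 0.000158) takes those signals as they stand and does not belong to the bound. Slc2a5 fell by 1.03 log2 (SE 0.18, adjusted p = 0.00228). Of the 4 enzymes that make or remove fructose 2,6-bisphosphate, which inhibits fructose 1,6-bisphosphatase, Pfkfb3 rose (2.25 ± 0.11, adjusted p = 1.47e-05) and Pfkfb1, Pfkfb2 and Pfkfb4 fell by 0.74, 0.49 and 0.43 log2. Of 14 regulators 11 were higher and 2 lower. Hnf4a, a nuclear receptor of proximal tubule and liver, rose 49.1-fold (5.62 ± 0.43, adjusted p = 7.83e-05).

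**Figure D3:**
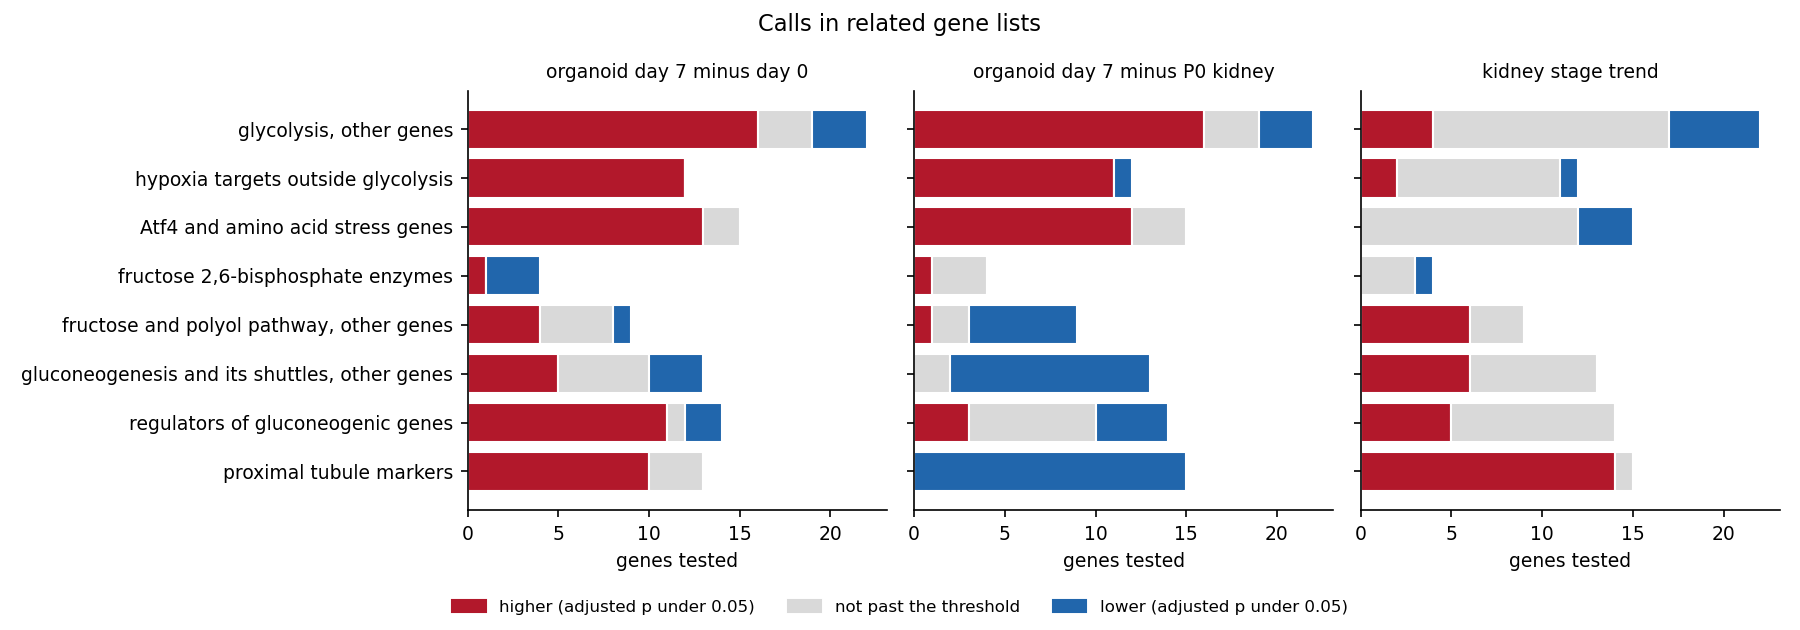
Number of genes in 8 related lists that were higher, lower or not past the threshold (limma, adjusted p under 0.05) at organoid day 7 against day 0, at organoid day 7 against P0 kidney, and in the slope over kidney stages. Hypoxia targets are higher in 12 of 12 tested against day 0, and proximal tubule markers are lower in 15 of 15 against P0.

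Day 7 organoids were then compared with newborn kidney. All 8 genes passed, 3 higher and 5 lower than at P0, against 31.5% of the 26213 genes tested (18.0% or 4721 genes higher, and 3548 genes lower). P0 had a single array, whose spread was taken from the organoid replicates, as for all comparisons with kidney. The median difference was -2.63 over the 8 genes and 0.079 over all genes tested.

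The organoids were far below P0 for Fbp1, G6pc and Pck1. Fbp1 averaged 0.63 ± 0.16 at day 7 (SD, n = 3) and had 7.63 at P0, 128-fold higher in P0 kidney (-7.00 ± 0.63, adjusted p = 0.00109). G6pc averaged -4.05 ± 0.54 at day 7 and had 3.01 at P0, a difference of -7.06 ± 0.72 (adjusted p = 0.00160). Pck1 averaged -0.021 ± 0.100 at day 7 and had 4.87 at P0 (-4.89 ± 0.46, adjusted p = 0.00127).

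The other genes that were lower had smaller differences. Fbp2 averaged -2.89 ± 0.16 at day 7 and had 0.92 at P0 (-3.81 ± 0.24, adjusted p = 0.000364, and -2.47 with normexp). Khk averaged 3.14 ± 0.23 and had 4.59 at P0 (-1.45 ± 0.22, adjusted p = 0.00593). The second Khk probe pointed the other way, with -1.34 ± 0.28 at day 7 and -1.94 at P0 (0.61, adjusted p = 0.0814), and with the mean of both probes the call was lost (-0.42, adjusted p = 0.178).

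The 3 others were higher than at P0: Aldoa by 1.62 ± 0.19 (9.05 ± 0.14 at day 7 and 7.43 at P0, adjusted p = 0.00243), Aldoc by 2.01 ± 0.25 (4.85 ± 0.30 and 2.84, adjusted p = 0.00318) and Pck2 by 1.05 ± 0.13 (-1.50 ± 0.087 and -2.56, adjusted p = 0.00306). With slide as a block all 8 calls kept their direction, with differences of 1.33 for Aldoa, 1.87 for Aldoc, 1.003 for Pck2, -5.68 for Fbp1, -5.61 for G6pc, -3.83 for Pck1, -3.91 for Fbp2 and -1.72 for Khk. The kidney and day 7 arrays were on different slides. Here and in the further fits with kidney, the slide term therefore rests only on day 0 replicate 3 against day 0 replicates 1 and 2. Among related genes 16 of 22 glycolytic genes (median 1.31), 11 of 12 hypoxia targets (2.25) and 12 of 15 Atf4 and stress genes (1.67) were higher, and 11 of 13 gluconeogenic genes (-1.30), 6 of 9 fructose genes (-2.85) and 15 of 15 proximal tubule markers (-6.23) were lower.

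The summed level of those tubule markers was 24.2 to 34.1 at day 7 and 895 at P0, and its part in the lower gluconeogenic genes was not tested. Pcx had the largest difference of the other gluconeogenic genes (-4.49 ± 0.12, 22.4-fold higher in P0 kidney, adjusted p = 7.14e-05). Slc2a2 (-4.64 ± 0.44, adjusted p = 0.00128) and Slc2a5 (-4.40 ± 0.26, adjusted p = 0.000304) led the fructose genes. P4ha2, a prolyl hydroxylase of collagen and a hypoxia target, was 17.0-fold higher at day 7 (4.09 ± 0.17, adjusted p = 0.000133), and Trib3 48.5-fold (5.60 ± 0.22, adjusted p = 0.000121).

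Cultured E11.5 kidney is the nearest counterpart of the day 7 organoids, having had the same time in culture. None of the 8 genes passed between day 7 organoids and cultured kidney in limma, against 3.95% of the 26213 genes tested (1.93% higher and 2.03% lower, which is 505 and 531 genes, or 816 and 376 with arrays scaled to their median). At an unadjusted p under 0.05 none of the 8 was higher and 1, Fbp2, was lower, against 2 higher and 0 lower both with slide as a block and with arrays scaled to their median, and 1 and 0 with trend and robust settings. The median difference was 0.20 over the 8 genes and -0.040 over all genes tested.

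Aldoa averaged 9.05 at day 7 and had 8.83 in cultured kidney (0.22 ± 0.19, adjusted p = 0.518), Aldoc 4.85 and 4.79 (0.060 ± 0.25), and Pck2 -1.50 and -1.68 (0.17 ± 0.13). The cultured kidney array lay within the range of the 3 day 7 arrays for Aldoc and below it for Aldoa and Pck2. Fbp1 averaged 0.63 at day 7 and had 0.37 in cultured kidney (0.26 ± 0.63), G6pc -4.05 and -4.15 (0.11 ± 0.72), and Khk 3.14 and 2.89 (0.25 ± 0.22).

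Pck1 averaged -0.021 at day 7 and had -1.02 in cultured kidney (0.998 ± 0.46, adjusted p = 0.259), and it passed with normexp background correction (0.72, adjusted p = 0.00479). Fbp2 averaged -2.89 at day 7 and had -2.29 in cultured kidney (-0.60 ± 0.24, adjusted p = 0.206). With slide as a block the difference of Pck1 was 2.06 (adjusted p = 0.104), that of Fbp1 1.58 (adjusted p = 0.379) and that of G6pc 1.56 (adjusted p = 0.470). A p that misses the threshold does not show that the tissues were alike.

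Culture itself could be set against the fresh E11.5 kidney, with 1 array on each side and no test. Cultured kidney was at least 2-fold above fresh E11.5 kidney in 6 of the 8 genes and below it by that much in none, against 19.7% of 24146 genes (11.3% higher and 8.41% lower). The median difference was 2.35 over the 8 genes and -0.12 over all genes. Aldoc was 9.90-fold higher, Aldoa 2.61-fold, Khk 2.49-fold and Fbp1 20.4-fold. The second Khk probe had -1.83 in cultured and -2.23 in fresh E11.5 kidney, which is less than 2-fold. Pck1 was at least 19.6-fold and Fbp2 at least 8.10-fold higher, their E11.5 signals being not well above background. With normexp background correction, which raises dim signals by an offset, the differences were smaller, 1.71 log2 for Pck1, 0.85 for Fbp2, 2.21 for Fbp1 and 0.44 for Pck2. Pck2 was 1.71-fold and G6pc 1.65-fold higher. By the same fold all 12 hypoxia targets outside glycolysis were higher and none lower (median 2.52), with a summed level of 174 in cultured and 26.7 in fresh E11.5 kidney. Of 22 glycolytic genes 7 were higher and 1 lower, of 15 Atf4 and stress genes 7 and 0, and of 13 proximal tubule markers 10 and 1, the tubule markers summing to 20.2 in cultured and 2.35 in fresh kidney. The part of oxygen supply and of tubule cells in these differences was not tested.

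Between P0 and E11.5 kidney 6 of the 8 genes were at least 2-fold higher and none lower, against 29.9% of 24728 genes. Aldoa (-0.013 log2) and Pck2 (-0.11 log2) were the genes that did not reach it. Aldoa, Aldoc and Pck2 had larger differences in cultured E11.5 kidney than in P0 kidney, each set against the same E11.5 array, and Fbp1, Fbp2, Pck1, G6pc and Khk had smaller ones. The second Khk probe had -1.94 at P0 and -2.23 at E11.5, less than 2-fold apart. With -1.83 in cultured kidney, that probe had the larger difference in culture.

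**Figure D4:**
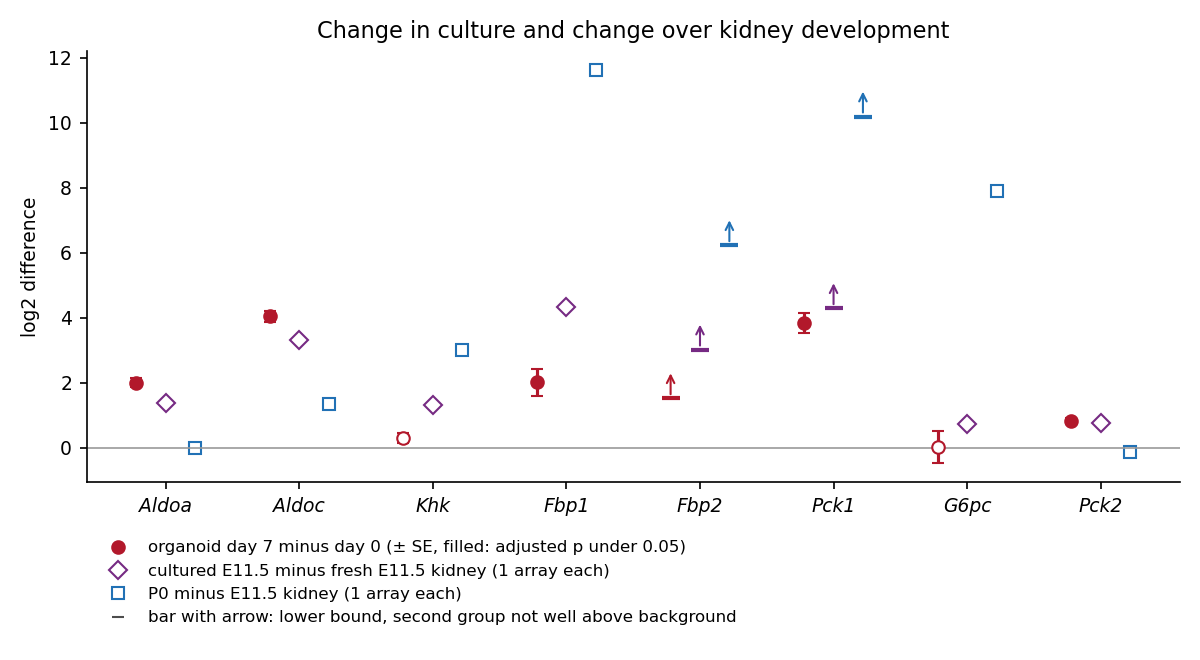
Log2 differences of the 8 genes between organoid day 7 and day 0 (mean ± SE, n = 3 each), between cultured and fresh E11.5 kidney, and between P0 and E11.5 kidney (1 array each). Bars with arrows are lower bounds where the second group was not well above background. Aldoa, Aldoc and Pck2 lie higher in both culture contrasts (2.01, 4.04 and 0.83 in organoids) than in the contrast over development (-0.013, 1.35 and -0.11).

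Whether culture changed organoids and kidney by different amounts was tested as the difference of the 2 changes. Of the 8 genes 1 passed, Fbp2, against 10.1% of the 26213 genes tested (5.24% higher and 4.89% lower, which is 1374 and 1282 genes, or 1278 and 763 with arrays scaled to their median). In both uncultured groups Fbp2 was not well above background on any array, so neither the size nor the direction of this difference (-2.22 ± 0.34, adjusted p = 0.0194) is measured, and between the cultured groups Fbp2 did not pass (-0.60, adjusted p = 0.206). With slide as a block the adjusted p was 0.0519, and with normexp the difference was -0.77. The differences of Fbp1 (-2.33 ± 0.90, adjusted p = 0.151), Pck1 (-2.17 ± 0.66, adjusted p = 0.0904) and Khk (-1.004 ± 0.31, adjusted p = 0.0951) did not pass.

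Day 0 organoids and fresh E11.5 kidney are the starting points of the cultures. Of the 8 genes 4 passed at day 0 and none was lower. Of these, Fbp1, Pck1 and Khk were higher, and Fbp2 was not well above background on any array of either group, so its difference is not read as a change. Of all 26213 genes tested 23.0% passed (12.4% higher and 10.6% lower). The median difference was 1.03 over the 8 genes and 0.059 over all genes tested. Pck1 had -3.25, -3.76 and -4.57 at day 0 and -7.03 at E11.5 (3.17 ± 0.46, adjusted p = 0.00884). The lowest day 0 signal and the E11.5 signal were not well above background. The difference of Pck1 and its p take those signals as they stand, so its size is uncertain. Khk had 2.82, 2.65 and 3.004 at day 0 and 1.57 at E11.5 (1.25 ± 0.22, adjusted p = 0.0146).

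Fbp1 had -0.44, -1.44 and -2.27 at day 0 and -3.98 at E11.5 (2.59 ± 0.63, adjusted p = 0.0376). The differences with normexp background correction were 1.22 for Fbp1 and 0.82 for Pck1, and both passed. That setting called 12943 of the 26213 genes tested higher and 4004 lower, so a higher call was common there. On the slide that held E11.5 kidney and day 0 replicates 1 and 2, Pck1 alone passed (3.53, adjusted p = 0.0398), with 3.03 for Fbp1 (adjusted p = 0.0778) and 1.16 for Khk (adjusted p = 0.0911). With slide as a block, which gives the same differences by design, Fbp1, Pck1 and Khk passed. The call of Fbp1 was also lost without day 0 replicate 2 (adjusted p = 0.0648) and without any 1 of the day 7 arrays, which lend their spread (adjusted p = 0.0664 to 0.0692). The proximal tubule markers of the day 0 arrays, whose values stand above, were higher than E11.5 in 5 of 15 tested and lower in 1. Of 22 glycolytic genes 2 were higher and 8 lower at day 0, and 12 did not pass (median -0.43). Aldoa (-0.40 ± 0.19, adjusted p = 0.176) and Aldoc (-0.67 ± 0.25, adjusted p = 0.110) did not pass either.

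Over all 12 arrays the members fell into 2 patterns. Aldoa, Aldoc and Pck2 ran together, with Pearson's r of 0.97 between Aldoa and Aldoc and 0.94 between Aldoa and Pck2. Fbp1, Pck1, Fbp2 and G6pc ran together as well, with r of 0.95 between Fbp1 and Pck1, 0.94 between Fbp1 and Fbp2 and 0.90 between Fbp1 and G6pc. This set was looser for G6pc, with r of 0.81 to Pck1 and 0.75 to Fbp2. Khk ran closest to Pck1, with r of 0.81, and had 0.76 with G6pc, 0.75 with Fbp1 and 0.65 with Fbp2. It was thus not clearly apart from the second set. Between a gene of the first set and one of the second r ran from -0.31 for Pck2 and G6pc to 0.52 for Aldoc and Pck1, and was 0.058 for Aldoa and Fbp1. The arrays share their groups and slides, so these values describe 12 arrays and have no p. Fbp2 was well above background on 7 of the 12 arrays, and Pck1 and G6pc on 10 each. The values of r take their other signals as they stand.

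The genes most like Fbp1 over the 12 arrays were Kl, the kidney hormone coreceptor Klotho (r = 0.993), Defb1 (r = 0.988) and Cideb (r = 0.987). For G6pc they were Serpina6, Pdilt and Miox (r = 0.966 to 0.965), and for Pck1 the transporters Slc1a1 and Slc27a2 and the lipase Pla1a (r = 0.986 to 0.985). Khk had lower values, with Pdk4 (r = 0.913), Kap (r = 0.897) and Irf7 (r = 0.877). Aldoa ran most closely with the glycolytic enzyme Gpi1 (r = 0.992), the clock gene Nr1d1 (r = 0.991) and Maff (r = 0.990). For Pck2 they were P4ha1 (r = 0.982), Dio3os (r = 0.981) and Chac1 (r = 0.980). These genes were taken from 3181 to 8173 named genes with an SD of at least 1, or 0.5 for Aldoa and Pck2, over the arrays.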

How the data were processed

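Total RNA was labelled with Cy3 and hybridised to one-colour arrays, per the labels' protocols. The deposited scanner files hold the processed signal, an intensity that was background-subtracted and detrended by Agilent Feature Extraction 11.5.1.1, per the file headers, whereas the submitters' processing notes name version 10.7.3.1. A further table deposited by the authors holds log2 values, which matched the log2 processed signal minus the 75th percentile of its array up to a constant per array. That value was computed here from the processed signal. Control spots and outlier spots were left out, spots of a probe were averaged, and for each gene name the brightest probe on average was taken. Probe coordinates are those of the files (mm9), and promoters come from RefSeq (GRCm38.p6).

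Genes entered a test if well above background throughout any 1 group, or at any 1 stage for the trend. They were tested in limma 3.58.1 (R 4.3.3), two-sided, with Benjamini-Hochberg adjustment over all genes tested. Organoid groups were fitted alone on 6 arrays, kidney comparisons on all 12, with the lone kidney arrays taken to vary as the organoid replicates do, and the trend on 5. A bound ("at least") sets the mean of the brighter group against the lowest signal well above background. It holds under this definition alone, since a signal above that lowest one can still be not well above background. Fbp2 at E13.5 was such a case, at -4.92 on an array whose lowest signal well above background was -5.05. No spot was saturated. The number of arrays limits the precision. The method was tested on simulated data. Related genes were named by the largest change among those called, at most 4 per list. The members, lists, tests and alternatives were chosen with earlier results of these data known. Same-numbered replicates did not deviate together (correlations of -0.028, -0.16 and -0.027), so no pairing by number was seen. With 3 arrays per group these values cannot settle whether samples were paired. Of the lists, Gk, Pkm2, Tkfc and Tigar had no probe by name, and the values of 1 further gene are not reported here. Alternatives were normexp background correction (offset 50), quantile normalization, median scaling, the deposited log2 table, averaging a gene's probes, looser and stricter background filters, eBayes with trend and robust options, blocks for slide or replicate, single slides and each array left out. The second Khk probe was added as an alternative after the data were seen. Figures were drawn with matplotlib 3.10.9 under Python 3.11.15.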

Additional observations from a re-analysis of the deposited data

Results flagged for a closer look

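The test of whether culture changed organoids and kidney by different amounts gave -2.22 log2 for Fbp2 (day 7 minus day 0 in organoids, less cultured minus fresh E11.5 kidney; limma, adjusted p = 0.0194). Its level was -2.89 at day 7 and -5.64 at day 0 in organoids, and -2.29 in cultured and -7.26 in fresh E11.5 kidney. Both uncultured groups were not well above background on any array, so neither the size nor the direction of this difference is measured, and the cultured groups themselves did not pass (-0.60, adjusted p = 0.206). The adjusted p was 0.0519 both with slide as a block (-2.29) and without day 7 replicate 3 (-2.16). Groups of 3 arrays were not screened for outlying samples.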

How the results depend on the processing

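Of the counts of the 8 genes recomputed under other settings, 173 stayed within 1.5 times and 19 did not. With normexp background correction, 1 gene (G6pc, -0.38) was lower at day 7 than at day 0, 2 were lower at day 0 than in E11.5 kidney, 1 was higher at day 7 than in cultured kidney, and the culture changes of organoids and kidney differed upward in 1 gene and downward in 3, with Pck2 at -0.26. Quantile normalization called 1 gene lower at day 0 than in E11.5 kidney and 1 difference of culture changes upward. Moderation with trend and robust settings called 1 gene lower at day 0 than in E11.5 kidney and 3 differences of culture changes downward. Requiring every array to be well above background left fewer genes to test, with 2 higher at day 0 than in E11.5 kidney, 2 lower at day 7 than at P0 and 3 rising with stage. With slide 1 alone 1 gene was higher at day 0 than in E11.5 kidney. With slide as a block 0 differences of culture changes passed in limma (3 lower at an unadjusted p under 0.05), G6pc there was at 0.27, and day 7 minus cultured kidney turned to -0.065 for Aldoa, -0.087 for Aldoc and -0.021 for Khk. The second Khk probe gave 0.61 for day 7 minus P0.

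With 1 array left out at a time, the genes rising with stage numbered 0 to 5, those higher at day 0 than in E11.5 kidney 3 to 4, and the differences of culture changes downward 0 to 2. Those higher at day 7 than at day 0 stayed at 6, and those higher and lower than at P0 at 3 and 5. G6pc lay between -0.45 and 0.44 for day 7 minus day 0 and between -0.089 and 0.42 for day 7 minus cultured kidney, Aldoc between -0.11 and 0.15 in that same contrast, and the Pck2 slope between -0.038 and 0.023. The cause of these changes was not tested.

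A replicate block in the fit of day 7 against day 0, although no pairing by number was seen, called 6 of the 8 genes higher and 0 lower, with 5000 genes of the whole table higher and 8144 lower, against 5399 and 9217 without the block.

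Over the whole table normexp called 12943 genes higher and 4004 lower at day 0 against E11.5 kidney (main setting 3248 and 2770), 12086 and 3810 at day 7 against P0 (4721 and 3548), 1927 and 1848 at day 7 against cultured kidney (505 and 531) and 3386 and 10529 in the difference of culture changes (1374 and 1282). At day 7 against day 0 normexp called 5062 genes higher and 11614 lower (5399 and 9217). Slide 1 alone gave 161 and 406 at day 0 against E11.5 kidney. Slide as a block gave 1505 and 1860 at day 7 against P0, 65 and 70 against cultured kidney and 734 and 612 in the difference of culture changes. Dim probes limit Fbp2, Pck1 and G6pc in E11.5 kidney and day 0 organoids most, since some or all of their signals there were not well above background.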
